A study of Mus musculus with 9 samples.

Results

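JAK-STAT and SOCS genes were examined in bone marrow-derived macrophages (BMDMs) given LPS with or without the LXR agonist T0901317 (T0). They are the 9 gene symbols Socs1, Socs2, Socs3, Cish, Jak2, Stat2, Stat3, Stat5a and Pim1 of 24061 symbols in the deposited count table. They were chosen by name, with earlier results of these data known, and the rows of 1 symbol were summed. BMDMs are primary macrophages grown from bone marrow, here of female C57BL/6J mice aged 8 to 10 weeks. Poly(A) RNA was sequenced from 3 groups of 3 libraries, which the study's methods describe as individually differentiated cultures. All cultures were differentiated for 7 days with L-cell conditioned medium, a source of M-CSF, then kept 1 day without serum.

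Treatment began on day 8. The Veh group received DMSO, the solvent of T0. The LPS group received DMSO and then 10 ng/mL LPS, a bacterial agonist of TLR4, for 2 hr. The T0+LPS group received 500 nM T0 for 3 hr and then the same LPS with T0 still present. A group given T0 without LPS was not analysed here, so values for T0 apply to LPS-stimulated cells. The sources used here do not state when Veh cultures were harvested, so an effect of culture time cannot be told apart from that of LPS. The LPS libraries serve in both comparisons, LPS against Veh and T0+LPS against LPS.

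Janus kinases (JAKs) sit on the cytoplasmic tails of cytokine receptors. When a cytokine binds, they phosphorylate the receptor and the STAT proteins, which pair and enter the nucleus to switch on target genes. Socs3, Socs1, Cish and Socs2 are among those targets, and their proteins bind receptors or JAKs and shut the signal down, a classic negative feedback loop. In macrophages the pathway carries signals from interferons, IL-6, IL-10 and GM-CSF, and LPS engages it through cytokines that the cells secrete. LXRs are nuclear receptors for oxysterols that induce cholesterol export genes and hold down part of the inflammatory response.

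Library totals ran from 13299044 to 16467983 counted reads. Levels are given as CPM, read counts scaled to the library total with TMM factors for library composition. TMM factors were 1.14 in the Veh libraries and between 0.931 and 0.948 in the other 6, so the scaling bears mainly on comparisons with Veh. The 7 macrophage markers found in the table summed to at least 24740 CPM in every library. Neutrophil, dendritic cell, B cell, T cell and fibroblast markers each summed to under 4 CPM in every library. Neutrophil markers were at 1.28 to 1.97 CPM in Veh, 2.93 to 3.93 CPM in LPS and 2.30 to 2.82 CPM in T0+LPS. In the same order, dendritic cell markers were at 0.232 to 0.529, 2.24 to 2.91 and 1.87 to 3.00 CPM. B cell markers were at 1.855 to 2.448, 1.00 to 1.60 and 0.836 to 1.45 CPM. Lyz2 held most of the macrophage sum, with a mean of 19762 CPM in Veh. Clec9a (dendritic cell) had 0 bases that the count table could read, and S100a9 (neutrophil) and Itgam (macrophage) had 3 each. Their 0 CPM therefore says nothing of their expression, as explained below for Stat3. The part of other cell types in the results below was not tested. In such bulk samples, fewer cells of a type and less RNA per cell cannot be told apart.

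The count table set a limit on which members could be read at all. It has a row for each RefSeq transcript, and bases that lie on more than 1 row carry no reads in it. Socs3, Cish, Stat2 and Pim1 have a single row each, with 2724, 2161, 4394 and 1753 bases, and together held 137312 reads over the 9 libraries. The other 5 members have several rows and together held 175 reads. Jak2 was read on 83 bases, Socs1 on 120, Stat5a on 282 and Socs2 on 716, while Stat3 had no base of its own and no read. Stat3, the main STAT of IL-6 and IL-10 receptors, therefore could not be measured, and its 0 reads say nothing of its expression.

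**Figure D1:**
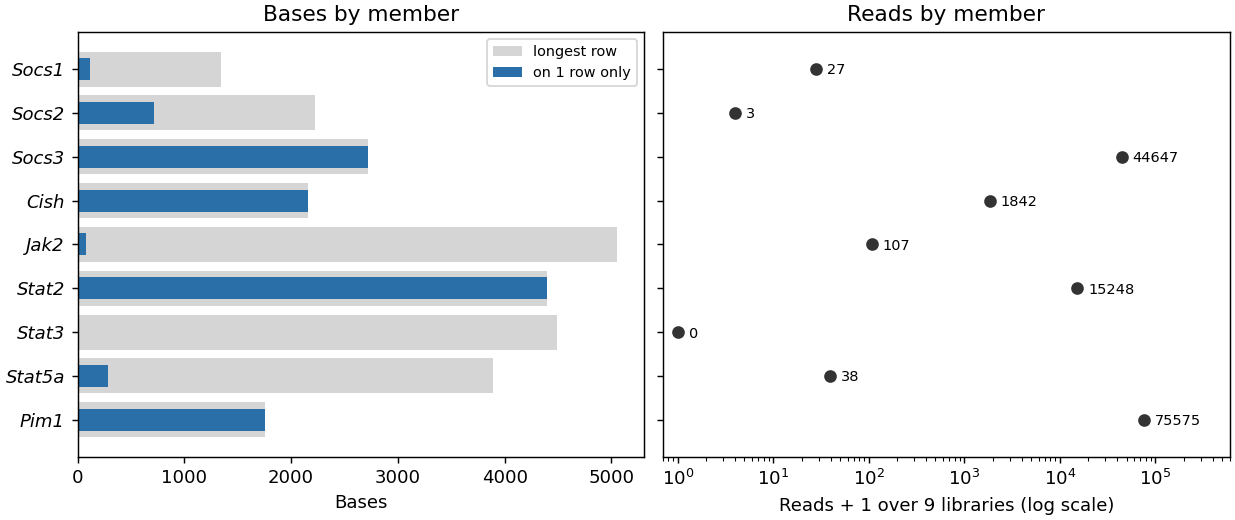
Bases on the longest row and bases lying on 1 row only (left, in bases) and reads summed over the 9 libraries (right, as reads + 1 on a log axis) for each member. The 4 members with a single row held between 1842 and 75575 reads, and the 5 with several rows held between 0 and 107.

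The 250 bases upstream of the start site were read for the members from RefSeq (GRCm38.p6), to show the sequence in front of them, whether or not they could be tested. The table held 10 windows for 8 members, and Socs2 was missing. Each window was searched on both strands for TTC and GAA around any 3 bases, the palindrome bound by STAT dimers, for GAAA repeated after any 2 bases, the core of the interferon-stimulated response element, and for GGG and TTTCC around any 2 bases, a form of the NF-κB site. The first was found only in front of Socs3, the second in front of Socs1 and Stat2, and the third in none of the 10. Over all 32851 windows of this length, 7.02% held the first, 2.98% the second and 1.41% the third. The 3 windows with a match are printed 5′ to 3′ on the strand of the gene, with matches in capitals. Socs3 is from chr11:117969367-117969616 (minus strand), Socs1 from chr16:10785537-10785786 (minus strand) and Stat2 from chr10:128270248-128270497 (plus strand).
Socs3: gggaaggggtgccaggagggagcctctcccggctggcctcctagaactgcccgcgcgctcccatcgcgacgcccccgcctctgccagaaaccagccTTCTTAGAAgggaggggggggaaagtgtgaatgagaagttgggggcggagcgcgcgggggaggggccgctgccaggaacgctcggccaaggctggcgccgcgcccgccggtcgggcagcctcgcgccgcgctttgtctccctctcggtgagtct
Socs1: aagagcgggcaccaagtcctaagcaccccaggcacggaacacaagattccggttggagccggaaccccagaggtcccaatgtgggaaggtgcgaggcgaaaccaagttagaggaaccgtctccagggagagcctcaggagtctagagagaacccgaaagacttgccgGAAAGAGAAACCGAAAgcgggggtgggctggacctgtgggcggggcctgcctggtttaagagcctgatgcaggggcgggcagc
Stat2: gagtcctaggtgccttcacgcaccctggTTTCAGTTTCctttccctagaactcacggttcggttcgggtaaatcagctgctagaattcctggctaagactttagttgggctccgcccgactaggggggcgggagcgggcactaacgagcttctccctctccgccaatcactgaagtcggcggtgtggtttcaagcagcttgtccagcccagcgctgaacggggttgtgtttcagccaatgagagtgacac

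The match of Socs3 lies 154 to 146 bases before its start site. The capitals of Socs1 hold 2 overlapping matches, at 83 to 74 and 77 to 68 bases before the start, and that of Stat2 lies 222 to 213 bases before, on the opposite strand. In that table the Stat2 start site lies upstream of the start of its row in the count table. A match is a description of these letters and not a measured binding site. Windows of Cish and Pim1, which also rose with LPS, held none of the 3 motifs, which says only that these letters are absent from those 250 bases. The Cish window ends at 107296658, before its row begins at 107296689. Of the Pim1 windows, 29490535 to 29490784 ends before its row begins at 29491045, and 29492835 to 29493084 lies within the row. The bases directly in front of these rows were thus not all searched.

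LPS raised Socs3, Cish, Pim1 and Jak2, with log2 fold changes between 3.31 and 9.82, and Stat2 did not pass the test. Of the 9 members, 5 passed the filter on low counts, 4 of these were called higher and 0 lower. Over all 9559 genes tested, 32.9% were called higher and 31.2% lower, and 64.1% were called either way. Socs3, Cish and Jak2 passed the filter only through the LPS-stimulated libraries, so the count over those tested is no support by itself. In these 4 every LPS library lay above every Veh library, as in 33.6% of all genes tested. Calls rest on edgeR's quasi-likelihood test, Benjamini-Hochberg adjusted over all genes tested, with a limit of 0.05, and SE stands for standard error.

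Socs3 encodes the inhibitor that blocks JAKs at the gp130 subunit of the IL-6 receptor. Its row spans 117966087 to 117969366 of chromosome 11 (mm10), minus strand. Its level was 0.428, 0.926 and 0.754 CPM in the Veh libraries, 659, 601 and 614 CPM in LPS, and 423, 490 and 521 CPM in T0+LPS. The Veh libraries were near the lower limit of reading, with 8, 14 and 13 reads, and all 6 stimulated libraries lay far above them. The log2 fold change of LPS against Veh was 9.82 (SE 0.25, edgeR quasi-likelihood adjusted p = 7.49e-20), a 902-fold rise with a 95% interval of 624 to 1302. By log2 fold change Socs3 ranked 7 among the 9559 genes tested.

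Cish encodes CIS, a SOCS family inhibitor that STAT5 induces downstream of GM-CSF and related cytokines. Its row spans 107296689 to 107301961 of chromosome 9, plus strand. The level was 0.321, 0.463 and 0.232 CPM in Veh, 34.5, 25.6 and 25.6 CPM in LPS, and 12.8, 15.3 and 22.1 CPM in T0+LPS. The 3 groups did not overlap, and LPS replicate 1 stood above the other LPS libraries. Cish rose 83.7-fold with LPS (95% interval 45.0 to 156), a log2 fold change of 6.39 (SE 0.42, edgeR quasi-likelihood adjusted p = 2e-13).

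Pim1 encodes a serine/threonine kinase that STAT3 and STAT5 induce and that promotes survival and growth. Its row spans 29491045 to 29495459 of chromosome 17, plus strand. The level was 94.0, 92.3 and 92.9 CPM in Veh, 940.3, 891 and 926 CPM in LPS, and 799, 829 and 857 CPM in T0+LPS. Unlike Socs3 and Cish, Pim1 was well read in Veh, where its libraries lay close together. It rose 9.89-fold with LPS (95% interval 9.10 to 10.75), a log2 fold change of 3.31 (SE 0.06, edgeR quasi-likelihood adjusted p = 1.38e-18).

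Stat2 encodes a STAT that carries the signal of type I interferon. Its row spans 128270576 to 128292849 of chromosome 10, plus strand. The level was 91.9, 137 and 125 CPM in Veh, 116, 119.7 and 122 CPM in LPS, and 107, 122 and 103 CPM in T0+LPS. The Veh libraries spread on both sides of the LPS libraries, so the groups overlapped. The log2 fold change of LPS against Veh was 0.02 (95% interval -0.19 to 0.23, edgeR quasi-likelihood adjusted p = 0.851), and scaling to library totals alone turned it to -0.26 with an adjusted p of 0.0302. That scaling moved the median of all genes tested by -0.28, from -0.0019 to -0.284, and the share of calls that were higher from 51.36% to 23.84%. Against that shifted median Stat2 was again close to the centre of all genes.

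Jak2, the kinase of the GM-CSF and interferon gamma receptors, was read on 83 bases of 1 exon stretch, from 29252437 to 29252519 on chromosome 19. It had 2, 1 and 3 reads in Veh, 15, 24 and 14 in LPS, and 11, 21 and 16 in T0+LPS. All 6 stimulated libraries lay above the 3 Veh libraries, at levels of at most 1.75 CPM. The log2 fold change of LPS against Veh was 3.43 (SE 0.63, 95% interval 2.09 to 4.78, edgeR quasi-likelihood adjusted p = 5.72e-06), and the ratio of summed reads was 11.5 with an exact 95% counting interval of 4.94 to 32.7. Reads on this stretch stand for the transcripts that hold it and not for all Jak2 RNA.

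Socs1, Stat5a and Socs2 did not pass the filter and were not tested in either comparison. Socs1, the inhibitor of interferon receptor signalling, had 0, 1 and 0 reads in Veh, 3, 7 and 3 in LPS, and 4, 5 and 4 in T0+LPS. The LPS to Veh ratio of its summed reads, 13 against 1, was 16.9 with an exact 95% counting interval of 2.54 to 718. Stat5a, a STAT of GM-CSF and related cytokines, had 1 read in each Veh library, 5, 8 and 7 in LPS, and 7, 3 and 5 in T0+LPS. Its LPS to Veh ratio, 20 reads against 3, was 8.67 with a counting interval of 2.57 to 45.5. For both genes the LPS libraries lay above the Veh libraries. Socs2, an inhibitor of growth hormone signalling, had 3 reads in all, 1 in LPS and 2 in T0+LPS, so no fold is given. These intervals cover counting error only and not the spread between cultures.

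**Figure D2:**
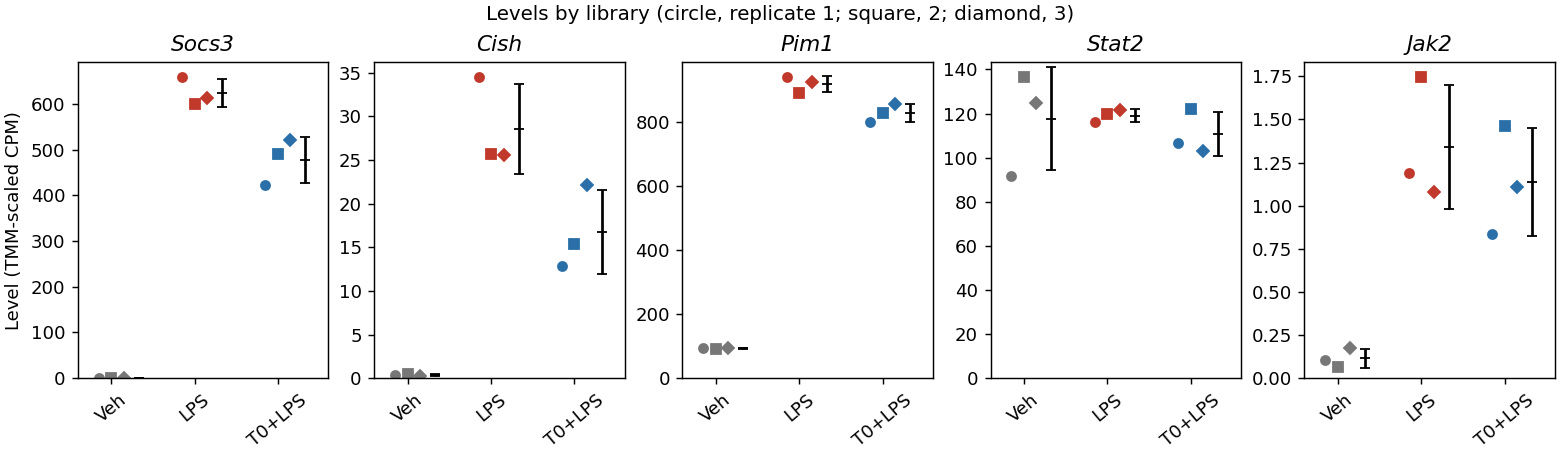
Level in TMM-scaled CPM (linear axes from 0) of the 5 members tested, in each library of Veh, LPS and T0+LPS, with mean and SD (n = 3) to the right of each group. Socs3, Cish and Pim1 lay lower in all T0+LPS libraries than in any LPS library and far above Veh in both, while Stat2 overlapped between all groups under TMM scaling (with library totals alone it was called lower in LPS than in Veh).

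T0 before LPS lowered Socs3 and Cish, by 23.5% and 41.0% of their LPS levels. Of the 5 members tested, 2 were called lower in T0+LPS and 0 higher, where 1.83% of the 9348 genes tested were called lower, 1.35% higher and 3.18% either way. An unadjusted p under 0.05 was reached by 3 of the 5 and by 13.9% of all genes tested, and 0 members were called higher under any alternative, DESeq2 and limma-voom included. The mean was lower in all 5, but 3 of these were not called. Their median log2 fold change of -0.23 is the value of Jak2, which turned to 0.0106 without LPS replicate 2. The median of all genes was 0.0028, so a lower mean by itself is common. In 3 of the 5, Socs3, Cish and Pim1, every T0+LPS library lay below every LPS library, which held for 9.62% of all genes tested. Each of these remained far above Veh.

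The Socs3 mean was 625 ± 30.6 CPM in the LPS libraries and 478 ± 49.9 CPM in the T0+LPS libraries (± SD, n = 3 each). The log2 fold change was -0.39 (SE 0.06, 95% interval -0.52 to -0.25, edgeR quasi-likelihood adjusted p = 0.00255). It stayed between -0.45 and -0.30 and was called in all 6 fits that each left out 1 library. LPS replicate 1 was the highest LPS library and T0+LPS replicate 1 the lowest T0+LPS library. Without both of these the log2 fold change was -0.27 and the call was lost (edgeR quasi-likelihood adjusted p = 0.0523), an alternative chosen after seeing the data.

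The Cish mean was 28.6 ± 5.13 CPM in the LPS libraries and 16.8 ± 4.83 CPM in the T0+LPS libraries (± SD, n = 3 each). The log2 fold change was -0.76 (SE 0.16, 95% interval -1.10 to -0.42, edgeR quasi-likelihood adjusted p = 0.0124). The same pair of libraries lay at the ends for Cish, with T0+LPS replicate 3, at 22.1 CPM, close under the LPS libraries at 25.6 CPM. The call was lost without LPS replicate 1 (-0.61, adjusted p = 0.0776), without T0+LPS replicate 2 (-0.70, adjusted p = 0.0798), without replicate 1 of both groups (-0.45, adjusted p = 0.122) and with DESeq2 (-0.77, adjusted p = 0.118), the first 3 by edgeR. The direction was lower in each.

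The Pim1 mean was 919 ± 25.3 CPM in the LPS libraries and 828 ± 28.8 CPM in the T0+LPS libraries (± SD, n = 3 each). Its log2 fold change of -0.15 (95% interval -0.28 to -0.02) did not pass after adjustment (edgeR quasi-likelihood adjusted p = 0.0916). It passed in the fit to all 9 libraries, with an edgeR adjusted p of 0.0344 and the same log2 fold change. The Stat2 mean was 119 ± 2.84 CPM in the LPS libraries and 111 ± 10.0 CPM in the T0+LPS libraries (± SD, n = 3 each), with a log2 fold change of -0.11 (95% interval -0.24 to 0.03, edgeR quasi-likelihood adjusted p = 0.499). For Jak2 the interval ran from -0.91 to 0.44 around -0.23 (edgeR quasi-likelihood adjusted p = 0.825), so neither a drop nor a rise of moderate size was detectable at this depth.

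The T0+LPS to LPS ratio of summed reads was 0.938 for Socs1 (13 reads in each group, exact 95% counting interval 0.400 to 2.20) and 0.703 for Stat5a (15 against 20 reads, 0.335 to 1.45). Both intervals span 1 widely. No difference was detectable for these genes at this depth.

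**Figure D3:**
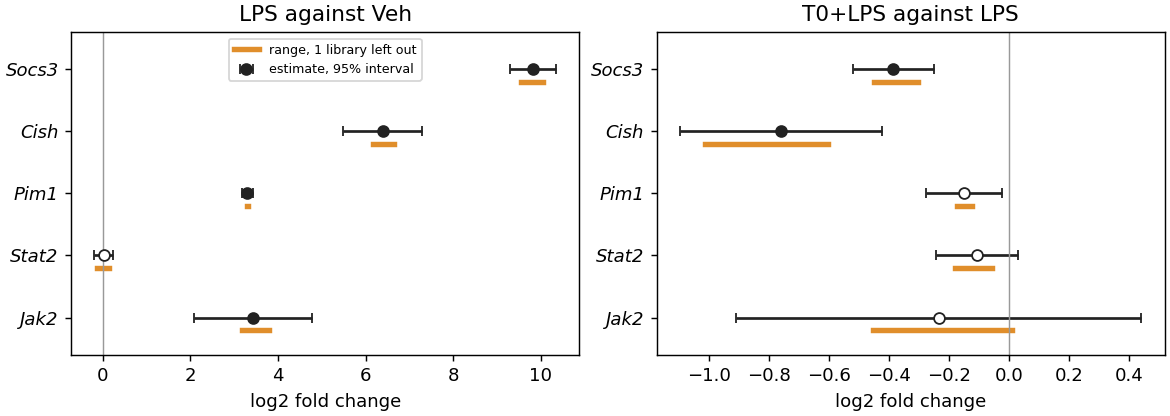
Log2 fold change of the 5 members tested in LPS against Veh (left) and T0+LPS against LPS (right), with the 95% interval (black), the range over fits without 1 library (orange) and filled circles for calls at an adjusted p under 0.05. On the right only Socs3, at -0.39, and Cish, at -0.76, are filled, and on the left only Stat2 is open, at 0.02 (-0.26 and called with library totals alone).

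Reads of 2 members within 1 library were also compared, since such a ratio needs no scaling between libraries. Per 100 Pim1 reads there were 70.1, 67.4 and 66.4 Socs3 reads in the LPS libraries and 53.0, 59.1 and 60.8 in the T0+LPS libraries. For Cish there were 3.67, 2.88 and 2.76 reads per 100 Pim1 reads in LPS and 1.60, 1.85 and 2.58 in T0+LPS. Neither ratio overlapped between groups, so relative to Pim1 both inhibitors were lower in every T0+LPS library. Each gave p = 0.1 in an exact 2-sided permutation test on log ratios, the smallest p that 3 against 3 libraries allow, and 0.15 after Benjamini-Hochberg adjustment over the 3 ratios. Per 100 Socs3 reads there were 5.23, 4.27 and 4.16 Cish reads in LPS and 3.02, 3.13 and 4.25 in T0+LPS. Here T0+LPS replicate 3 lay within the LPS range (exact 2-sided permutation p = 0.2, adjusted 0.2), so a difference in size between the Cish and Socs3 changes was not resolved. These ratios were chosen after seeing the data.

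**Figure D4:**
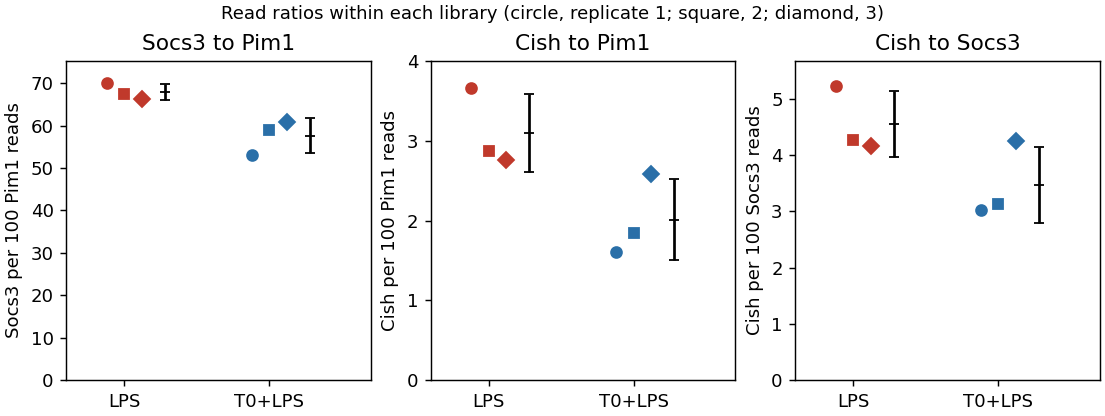
Reads of 1 member per 100 reads of another (linear axes from 0) in each LPS and T0+LPS library, with mean and SD (n = 3) beside each group. Socs3 and Cish relative to Pim1 lay lower in all T0+LPS libraries, and Cish relative to Socs3 overlapped at T0+LPS replicate 3, with 4.25 reads per 100.

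Levels of the 4 members with a single row were set side by side as RPKM, TMM-scaled CPM per kilobase of the row. In LPS the order was Pim1 at 524 ± 14.5, Socs3 at 229 ± 11.2, Stat2 at 27.1 ± 0.647 and Cish at 13.2 ± 2.38 RPKM (SD, n = 3), and no neighbours in that order overlapped. In T0+LPS the order was the same, at 473 ± 16.4, 176 ± 18.3, 25.2 ± 2.28 and 7.75 ± 2.23 RPKM (SD, n = 3), again without overlap. In Veh, Pim1 at 53.1 ± 0.488 and Stat2 at 26.8 ± 5.27 RPKM (SD, n = 3) came before Socs3 at 0.258 ± 0.0929 and Cish at 0.157 ± 0.0540 RPKM (SD, n = 3). The libraries of the last pair overlapped, so their order in Veh is not resolved. In level per length, Socs3 lay under Stat2 in Veh and above it in both LPS-stimulated groups.

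The genes whose level over the 9 libraries was most like each member were named by Pearson's r of log2(CPM + 0.5), among 7301 genes with a mean of at least 5 CPM. For Socs3 these were Peli1, Gbp5 and Cxcl1, with r from 0.9997 to 0.9998. For Cish they were Met, Frmd6 and Ifnar1 (0.9986 to 0.9988), and for Pim1 they were Tnfaip2, Bcl3 and Phldb1 (0.9999 each). Jak2 was closest to Tmem171, Psmd3 and 1110038F14Rik (0.9890 to 0.9949). Veh stood apart from the other groups for these members, and that gap weighs heavily in r. Stat2, without that gap, was closest to Ifit3 (0.9123), Oasl2 (0.8427) and Ddx58 (0.8402), genes known as interferon-stimulated. The libraries share depth and scaling, and these values are descriptions without a test.

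The other genes of the pathway were taken from 6 lists with 98 genes in all. Of these, 18 had under 300 unshared bases, among them Tyk2 with 69, and Myc and Irf7 had 0. In LPS against Veh 63 of the 98 were tested, 45 were higher and 10 lower under TMM scaling (34 and 19 with library totals alone), with a median log2 fold change of 0.52 beside -0.0019 over all genes. Some of these, Il6 and Il12b among them, passed the filter only through the LPS-stimulated libraries. Neither the count nor the median is therefore support by itself. In T0+LPS against LPS 64 were tested, 1 was higher and 6 lower, with a median of -0.03 beside 0.0028. DESeq2 gave 1 higher and 6 lower there, and limma-voom 1 and 7. For the list counts here and below, the shares over all genes tested were 32.9% called higher and 31.2% lower with LPS. With T0 they were 1.35% higher and 1.83% lower, and 13.9% had an unadjusted p under 0.05. Adjusted p-values for these genes are quasi-likelihood values of edgeR.

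Ligands that signal through JAKs rose with LPS in 9 of 11 tested and fell in 0, under TMM scaling. Il6, Il12b, Clcf1 and others among them were under 1 CPM in Veh and passed the filter only through the LPS-stimulated libraries, so this count is no support by itself. Il12b, Il6 and Il27 rose most among those with a mean of at least 5 CPM. The log2 fold change was 7.50 for Il6 and 6.22 for Il27, and Il12b is given as a ratio of summed reads, 2957 in LPS against 3 in Veh, which was 1281 with an exact 95% counting interval of 438 to 6217. With T0, 3 of the 11 were lower and 0 higher. Clcf1, a gp130 ligand, changed by -0.97 (adjusted p = 0.00216, edgeR) and Il27, whose receptor also holds gp130, by -0.39 (adjusted p = 0.00705, edgeR). Il23a, named here after its values were seen since its mean was under 5 CPM, changed by -1.13 (adjusted p = 0.0145, edgeR), a call that held in 3 of 6 fits with 1 library left out. Il6 and Il10, the ligands best known for inducing Socs3, were at -0.27 and -0.20 on the log2 scale and were not called. For Il6 every T0+LPS library lay below every LPS library, as for 9.62% of all genes tested, while Il10 overlapped. Both are named after their values were seen, and their part in the Socs3 change was not tested.

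Receptor genes rose in 13 of 20 tested and fell in 5 with LPS under TMM scaling, and library totals alone gave 8 higher and 8 lower. The interferon receptor genes Ifngr1 (log2 fold change 1.58), Ifnar2 (1.29) and Ifnar1 (1.28) rose, and Lifr (-1.98), Il6ra (-1.17) and Il21r (-0.73) fell. With T0 none of 21 was called by edgeR, although 5 had an unadjusted p under 0.05. Ifnar1 and Ifnar2 came closest, with log2 fold changes of -0.19 (adjusted p = 0.053, edgeR) and -0.18 (adjusted p = 0.0592, edgeR). The interferon gamma receptor genes Ifngr1 and Ifngr2 went the other way, at 0.14 and 0.09, and were not called either. All of these are named for T0 after their values were seen. Over the 21 receptor genes, 10 means were higher and 11 lower.

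Among the kinases, Pim2 (log2 fold change 1.45), Pim3 (1.15) and Jak1 (0.68) rose with LPS, 3 of 3 tested. With T0, Pim2 and Pim3 were called in opposite directions. Pim2 rose further by 0.61 (adjusted p = 0.0124, edgeR), from 10.9 ± 2.29 to 16.6 ± 0.319 CPM (± SD, n = 3 each), while Pim3 changed by -0.25 (adjusted p = 0.03, edgeR). The call of Pim2 was kept in 4 of 6 fits with 1 library left out and that of Pim3 in 1 of 6. Among STAT genes, Stat4 (0.52) and Stat6 (0.33) rose with LPS under TMM scaling and lost their calls with library totals alone, whereas Stat5b (-0.64), named after its values were seen since its mean was under 5 CPM, was called lower in 3 of 6 fits with 1 library left out and not with DESeq2. None of the 3 was called with T0 by edgeR, and 0 had an unadjusted p under 0.05.

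Inhibitors other than the members showed smaller LPS responses than Socs3 or Cish. Members and lists were chosen with earlier results of these data known, so this contrast is a description only. Of 13 tested, 8 rose and 2 fell under TMM scaling, where library totals alone gave 4 higher and 6 lower, with TMM-scaled log2 fold changes between -0.76 and 1.41. Sh2b2 (1.41), an adaptor that binds JAK2, Ptpn2 (1.01), a phosphatase of JAKs and STATs, and Socs5 (0.71) rose, and Socs6 (-0.76) and Sh2b3 (-0.27) fell. With T0 none of the 13 was called by edgeR, and 2 had an unadjusted p under 0.05. The list also holds SH2B adaptors, which bind JAK2 and are not all inhibitors, and 1 of these 2 genes is such an adaptor. Whether Socs3 and Cish differ from these inhibitors in their T0 response was not tested.

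STAT target genes rose with LPS in 10 of 13 tested and fell in 2, beside 32.9% and 31.2% of all genes tested. The 10 include a gene near the floor in Veh, with a mean of 0.238 CPM. It passed the filter only through the LPS-stimulated libraries, so the count is no support by itself. Cxcl10 (log2 fold change 6.73), Bcl3 (3.92) and Gbp2 (3.80) rose, and Fos (-4.38) and Ccnd1 (-0.57) fell. With T0, 2 of 13 were lower and 0 higher. Junb, an AP-1 subunit, went from 718 ± 7.17 to 580.2 ± 21.4 CPM (± SD, n = 3 each), a change of -0.31 on the log2 scale (adjusted p = 0.00079, edgeR). Ccnd1, the gene of cyclin D1, changed by -0.44 (adjusted p = 0.00426, edgeR), in the same direction as with LPS. The interferon targets Cxcl10, Gbp2 and Irf1 were at -0.01, -0.04 and -0.57 with T0 and were not called, with an edgeR adjusted p of 0.0719 for Irf1, whose T0+LPS libraries all lay below the LPS libraries. These 3 are named for T0 after their values were seen.

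**Figure D5:**
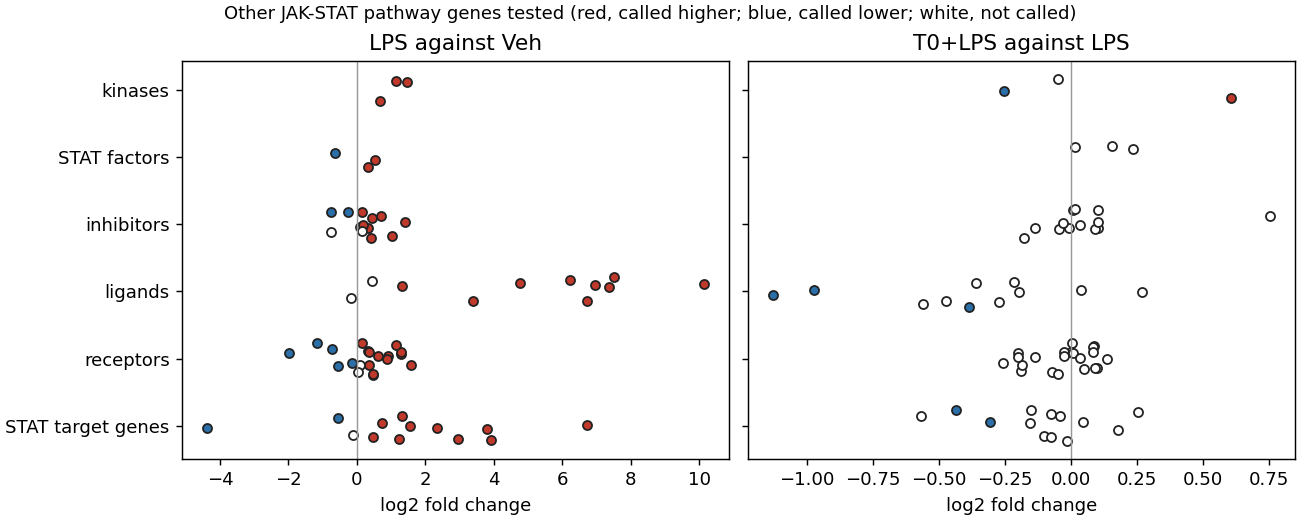
Log2 fold change of each gene tested in the 6 lists of other pathway genes, in LPS against Veh (left) and T0+LPS against LPS (right), with red for called higher, blue for called lower and white for not called (points are spread vertically within a list for legibility). The left panel holds 45 red and 10 blue points and the right panel 1 red and 6 blue, on axes of different range.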

How the data were processed

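RNA-seq of 9 BMDM libraries was analysed, with groups from the sample labels. The authors trimmed adaptors with cutadapt, aligned reads to mm10 with HISAT2 and counted them on RefSeq transcripts with featureCounts, and they deposited whole-number read counts without normalization. Reads on bases shared by several of the 32850 rows are absent: 6696 rows without an unshared base held 0 reads. Their tables of comparisons (fold values, adjusted p-values and gene names) were not used.

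Rows of 1 symbol were summed. edgeR 4.0.16's quasi-likelihood test (R 4.3.3, TMM factors, filterByExpr) was fitted to 6 libraries at a time with Benjamini-Hochberg adjustment over all genes tested. The members and lists were chosen with earlier results of these data known. All members are named. From each list the text names at most the 3 largest called genes in each direction, provided that groups do not overlap and the mean reaches 5 CPM; exceptions are marked. SEs and intervals of log2 fold changes are Wald values with the quasi-dispersion set to at least 1, so they are never narrower than counting error. Levels use TMM factors over all 9 libraries. Counting intervals are exact (95%), cover counting error only, and p-values cover only the spread between these libraries.

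Within groups, chi-square per degree of freedom was 2.63 to 6.67, so libraries differed by more than counting error. Every library was counted as a separate sample, and these values cannot show that the cultures were independent. On simulated counts with 3 libraries per group, the test recovered 76 of 100 genes changed by 1.5-fold and 92 of 100 changed by 2-fold in T0+LPS against LPS (9348 genes, 6 false calls). For LPS against Veh (9559 genes) it recovered 80 and 93 of 100, with 11 false calls. Counts were drawn with the dispersions that the same model had fitted, so this recovery is close to a best case. Changes smaller than 1.5-fold, such as that of Socs3 with T0 (fold 0.765), were not simulated. Alternatives were DESeq2 1.42.0, limma-voom (limma 3.58.1), other scalings, no filter, the row with most counts for each symbol, all 9 libraries, a replicate block, and each library left out. Dixon's test of outlying libraries needs at least 4 per group and was not applied. Marker lists and promoter sequences came from hand-written lists and RefSeq tables. Protein sequences were not used here, and 1 list gene is not reported here by name.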

Additional observations from a re-analysis of the deposited data

How the results depend on the processing

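In LPS against Veh, library totals alone gave 1 member lower (Stat2) and 19 other pathway genes lower, where the reported counts were 0 and 10. Stat2 turned to -0.26 there and to -0.0026 without a filter, and ranged from -0.13 to 0.14 with each library left out in turn. DESeq2 and the fit without a filter called 6 members higher. In T0+LPS against LPS, the fit without a filter gave 2 other pathway genes higher and 10 lower, where the reported counts were 1 and 6. With DESeq2 1 member was lower. With each library left out in turn, members called lower ranged from 1 to 2 and other pathway genes called higher from 0 to 1, and Jak2 ranged from -0.45 to 0.011. Without replicate 1 of LPS and of T0+LPS together, 0 members were lower, and 0 other pathway genes were higher and 3 lower. Over all genes, T0+LPS against LPS called 126 higher and 171 lower, 225 and 285 without a filter, 59 and 82 without LPS replicate 1, 86 and 103 without T0+LPS replicate 1, 78 and 94 without T0+LPS replicate 2, and 57 and 47 without replicate 1 of both. The cause of these shifts was not tested beyond the change of setting itself.

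Deviations of same-numbered libraries, over all genes that passed the filter, were nearly uncorrelated (r from -0.03 to 0.053). That gave no sign of pairing, but genes with few reads add noise to such an r. It therefore cannot exclude a shared culture or preparation. With a replicate block 4 members were higher and 0 lower in LPS against Veh, 0 higher and 2 lower in T0+LPS against LPS, and no member's call changed. The edgeR quasi-likelihood adjusted p with T0 fell to 0.000145 for Socs3 and 0.000321 for Cish, and rose to 0.131 for Pim1. Over all genes, that fit called 155 higher and 230 lower in T0+LPS against LPS, where the reported counts were 126 and 171.

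Few reads limit Jak2, Socs1, Stat5a and Socs2, which rest on 107, 27, 38 and 3 reads, and Stat3 had 0 reads on 0 unshared bases.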
